A study of Arabidopsis thaliana with 8 samples.

Results

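The 41 genes described here encode histones of Arabidopsis thaliana, and they were chosen by gene identifier from 32222 nuclear genes. Earlier results of these data were known when they were chosen. They comprise 8 loci of histone H4, 5 of H3.1, 3 of H3.3, 4 of canonical H2A, 10 of H2B, 3 each of the H2A variants H2A.Z and H2A.W, 2 of the variant H2A.X and 3 of the linker histone H1. The 27 genes of H4, H3.1, H2A and H2B are called replication-dependent below, and the 6 genes of H3.3 and H2A.Z are called replacement genes. Their RNA was measured by snRNA-seq (single-nucleus mRNA-seq) in globular embryos, the stage at which the embryo proper and the suspensor, the file of basal cells that carries it, are already distinct.

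All samples are of 1 condition. The plants were Col-0 carrying pWOX2::H2B-GFP and pWOX2::tdTomato-RCI2b, which the labels give as wild type. The WOX2 promoter drives the reporter in the embryo, and nuclei of other seed tissues also passed the sorting gate. Developing seeds were fixed with DSP, nuclei in the 2C and 4C peaks of the DAPI signal with a strong GFP signal were sorted 1 to a well, and a Smart-seq2 library, which has no molecular identifiers, was made from each. The 8 plates of 93 wells are the replicates. The labels do not say that plates came from separate plants or sorts, so p-values measure the spread between plates, which may be technical. Retaining wells that reached 100000 counts and 1000 features left 534 of 744 nuclei, 46 to 83 on a plate.

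Histones package DNA into nucleosomes, each a core of H2A, H2B, H3 and H4, while H1 binds the linker DNA between them. Canonical histones and H3.1 are made mainly in S phase, when newly copied DNA has to be wrapped, and H3.1 is placed on new DNA by the chromatin assembly factor CAF-1. H3.3 and H2A.Z can be exchanged into chromatin outside replication, and H2A.Z is found around the starts of genes. H2A.W marks the heterochromatin of flowering plants, and H2A.X is phosphorylated at DNA breaks. Plant histone messages, unlike most of those of animals, carry poly(A) tails, so that oligo-dT priming can capture them.

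Promoters of plant replication-dependent histone genes are known for an octamer and a hexamer element. The octamer CGCGGATC and the hexamer ACGTCA were searched on both strands of the 300 bases from 250 before to 50 after the annotated start of each gene (RefSeq, TAIR10.1, whose nuclear chromosomes are those of TAIR10). Neither motif holds the other. The octamer was present in 10 of 41 members, against 40 of the promoters of 27443 protein-coding genes (0.146%). The hexamer was present in 13 of 41 members, among them 9 of 10 H2B genes, against 9.19% of all promoters. Either motif was found in 18 of 27 replication-dependent genes, against 9.32% of all promoters. Each of the 7 genes that fell in suspensor nuclei, described further on, held at least 1 of them. All 7 belong to these 27 replication-dependent genes, and a link between motif and fall was not tested. The promoters of 5 of these 7 are shown because they hold a whole motif within the 150 bases before the start. Capitals mark the octamer or the hexamer, on either strand, and each is read 5′ to 3′ along the strand of its gene up to the base before the annotated start.
AT5G59690 (H4), chr5:24051324-24051473, plus strand: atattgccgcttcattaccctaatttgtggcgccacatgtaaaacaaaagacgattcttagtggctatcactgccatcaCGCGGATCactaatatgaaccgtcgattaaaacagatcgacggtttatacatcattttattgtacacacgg
AT1G09200 (H3.1), chr1:2972335-2972484, minus strand: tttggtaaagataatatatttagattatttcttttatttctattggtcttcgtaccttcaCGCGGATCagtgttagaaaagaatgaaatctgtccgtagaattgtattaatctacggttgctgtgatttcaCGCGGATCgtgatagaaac
AT5G10400 (H3.1), chr5:3270958-3271107, minus strand: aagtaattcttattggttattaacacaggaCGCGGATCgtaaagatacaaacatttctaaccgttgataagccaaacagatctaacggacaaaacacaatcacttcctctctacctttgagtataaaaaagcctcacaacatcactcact
HTA13 (H2A), chr3:7229240-7229389, plus strand: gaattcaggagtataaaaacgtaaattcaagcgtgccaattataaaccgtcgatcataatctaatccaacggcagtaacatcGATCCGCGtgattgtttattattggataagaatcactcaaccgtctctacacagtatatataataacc
AT2G37470 (H2B), chr2:15736577-15736726, plus strand: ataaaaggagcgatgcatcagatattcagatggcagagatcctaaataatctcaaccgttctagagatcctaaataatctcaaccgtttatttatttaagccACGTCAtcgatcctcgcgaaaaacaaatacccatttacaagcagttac
The octamer starts 71 bases before the start of AT5G59690, 90 and 19 bases before that of AT1G09200, 120 before that of AT5G10400 and 68 before that of HTA13. In HTA13 it reads on the opposite strand. The hexamer of AT2G37470 starts 48 bases before its start. Outside the replication-dependent types the octamer was found in AT4G40040 (H3.3), HTA6 (H2A.W) and AT1G06760 (H1). A match of letters is a description and not evidence of binding.

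The members differ in gene structure by type. All 10 H2B genes, all 5 H3.1 genes and 5 of 8 H4 genes have transcripts of a single exon, whereas every gene of H3.3, H2A, its variants and H1 has a transcript with more than 1 exon. The sharing of sequence limits single members, since 50-base reads of near-identical transcripts are split by estimation. More than 10% of the 31-base words of 14 members also occur in another gene's transcripts. Among them are 6 of 8 H4 genes, at 11.9 to 37.1%, HTA13 at 17.4% and GAMMA-H2AX (an H2A.X gene) at 59.3%. AT3G27360 (H3.1) is at 38.1% and HTB9 (H2B) at 39.3%. AT1G06760 (H1) shares 40.2% with AT1G04503, so its level below is uncertain too. AT5G02570 (H2B) overlaps HTA12 (H2A.W) on the opposite strand and shares 100% of its words with it, and the libraries do not keep strand, so these members are uncertain. The 3 H2A.Z genes share none.

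Levels are counts of a gene scaled to equal totals of nuclear-gene counts (CPM) in the summed nuclei of a plate, given as mean ± SD over 8 plates. CPM is a share of the RNA captured, so less of a message and more of all others cannot be told apart. Over all retained nuclei HTB4, an H2B gene, was found in the largest share of nuclei, 59.4%, at 296 ± 58.7 CPM. AT4G40040, an H3.3 gene, was close to it with 56% of nuclei and 365 ± 97.3 CPM. Per kb of transcript AT4G40040 had the highest level of the 41 members, at 283 CPM per kb, followed by HTB4 at 230 and AT5G10980, another H3.3 gene, at 194. H4 and H3.1 were spread over many genes. The 5 H3.1 genes took between 10.9 and 24.4% of the summed CPM of H3.1 each, and AT1G07820 took 29.6% of that of H4. In 5 of the 8 types with at least 3 genes, 1 gene took more than the others together, with AT4G40040 at 59.1% of H3.3, HTA8 at 58.9% of H2A.Z, HTA6 at 59.2% of H2A.W, AT1G06760 at 53.9% of H1 and HTA10 at 51% of H2A. At the low end AT5G02570 had a mean of 0.195 CPM and AT2G28720, also H2B, 0.684 CPM. HIS1-3, an H1 gene known from other work to respond to drought, was found in 1.87% of nuclei.

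Nuclei were grouped by clustering on genes other than histones, histone chaperones and exchange factors, and clusters were named from lists of markers. Embryo-proper-like nuclei (205 in 4 clusters) were then divided by how many of 18 replication markers, such as MCM and PCNA genes, and of 18 mitotic markers, such as B-type cyclins, had a count after each nucleus was thinned to 100000 counts. This gave 64 replicating nuclei (at least 6 replication markers), 57 mitotic nuclei (at least 5 mitotic markers) and 83 nuclei under both limits, called unmarked below, while 1 nucleus over both limits was left out. Both limits were chosen after seeing the data, and 19 and 13 nuclei lie within 1 marker of them. Of the unmarked nuclei, 28 belong to the cluster named after replication, so the class may hold replicating nuclei whose markers went undetected. The other classes are 137 suspensor-like, 40 quiescent-center-and-columella-like (QC/columella) and 81 seed-coat-like nuclei, which are maternal. A further 71 nuclei were in unnamed clusters. Every class was on all 8 plates. One of the embryo-proper clusters, named from protoderm markers, was led by the cytokinesis genes POK1 and POK2.

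The classes were built from marker lists, so the sums of those markers are a description. Suspensor markers summed to 4039 ± 982 CPM in suspensor-like nuclei and 59.4 ± 71.7 CPM in unmarked nuclei. Replication markers summed to 5014 ± 761 CPM in replicating nuclei and 1302 ± 579 CPM in unmarked nuclei, and mitotic markers to 6366 ± 1780 CPM in mitotic nuclei and 400 ± 136 CPM in unmarked nuclei. Markers of the seed coat were present in every class. Their 12 genes summed to 1212 to 1520 CPM on average outside the seed-coat-like class, where they reached 8489 CPM, and BAN, one of them, was found in 45.8 to 75.4% of thinned nuclei of the other classes. The 8 endosperm markers summed to at most 67.5 CPM in any class. Median detected features after thinning were 2078 in replicating, 2423 in mitotic, 2469 in suspensor-like, 2530 in QC/columella, 2637 in seed-coat-like and 1835 in unmarked nuclei. The part of free RNA and of depth in the values below was not tested.

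**Figure D1:**
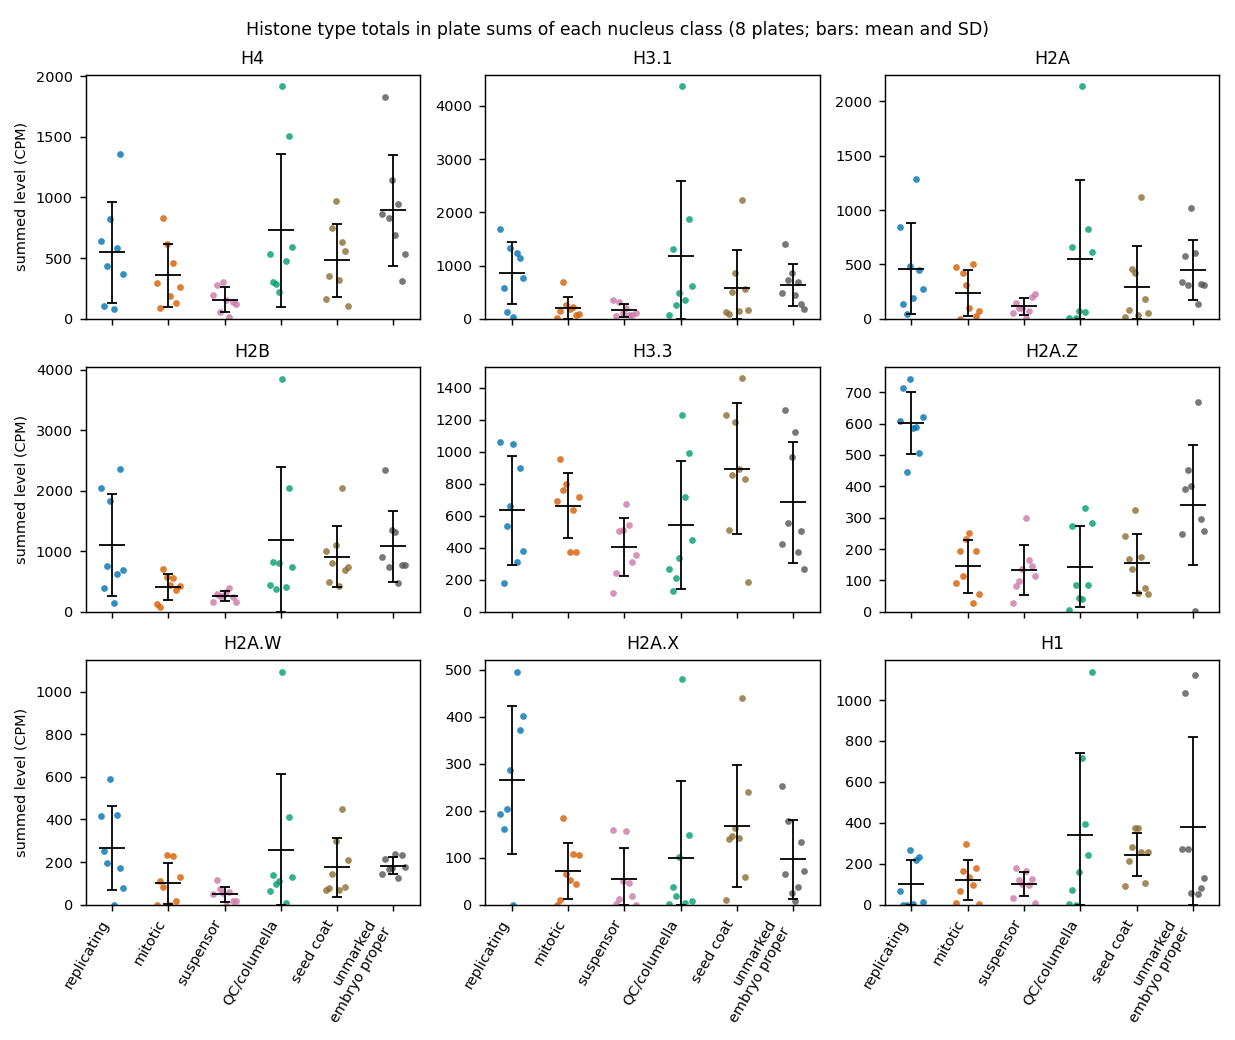
Summed level (CPM, vertical axis) of each histone type in the plate sums of 6 classes of nuclei, 1 point per plate (8 plates), with bars for the mean and SD (cut at 0). Suspensor-like nuclei lie below unmarked embryo-proper nuclei, taken as a whole class, without overlap for H4, H2B and H2A.W. Replicating nuclei lie above mitotic nuclei without overlap for H2A.Z.

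Suspensor-like nuclei had the lowest replication-dependent totals of the 6 classes. The 27 genes summed to 537, 714 and 786 CPM (lowest, median and highest plate) in suspensor-like nuclei, against 1671, 2608 and 6162 CPM in unmarked embryo-proper nuclei. These groups did not overlap, and the suspensor-like sum was the lower on 8 of 8 plates. That holds for the unmarked class as a whole. Its nuclei of the cluster named after replication (28) had 1083, 3606 and 7261 CPM. Those of the inner-vascular-like cluster (24) had 569, 1391 and 8814 CPM, and of the protoderm-like cluster (22) 167, 2207 and 10869 CPM. The last 2 sets cover 7 plates each and overlapped with suspensor-like nuclei. The ratio of the means, unmarked over suspensor-like, was 5.65 for H4, 4.14 for H2B, 3.96 for H2A and 3.93 for H3.1. The replacement total was also the lower on 8 of 8 plates, at 539 ± 252 CPM in suspensor-like nuclei and 1024 ± 368 CPM in unmarked nuclei, with a ratio of 1.90 and with overlap. H2A.Z was lower on 7 of 8 plates, with a ratio of 2.54. H3.3 alone was at 405 ± 182 CPM in suspensor-like nuclei and 684 ± 377 CPM in unmarked nuclei, lower on 6 of 8 plates. H3.1 made up 28.6 ± 20.6% of H3.1 plus H3.3 in suspensor-like nuclei and 47.5 ± 12% in unmarked nuclei. Of the suspensor-like nuclei, 9 reached the limit for replication markers and 0 that for mitotic markers. The larger of the suspensor-like clusters (98 nuclei) had 692 ± 185 CPM of replication-dependent RNA and the smaller (39 nuclei) 844 ± 628 CPM, which differ by less than the spread between plates.

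Among single members, 7 fell in suspensor-like nuclei relative to unmarked embryo-proper nuclei and 0 rose, of 34 tested (edgeR quasi-likelihood test with plate as a block, two-sided, Benjamini-Hochberg adjusted over 10045 genes). Of all genes tested 1.72% were lower and 8.51% higher. All 34 members had a negative difference, with a median of −2.79 (log2), while the median over all genes tested was 1.39. In all comparisons the fitted differences are not log2 ratios of the mean CPM printed beside them, and some are far larger. The 7 are AT1G07820 and AT5G59690 (H4), AT1G09200 and AT5G10400 (H3.1), HTA13 (H2A), and HTB2 and AT2G37470 (H2B). All belong to the 22 replication-dependent genes tested. None of the 6 replacement genes was called, with a median of −1.07, but the difference between these groups of genes was not tested.

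HTA13, one of the 4 canonical H2A genes, had 0, 0.06 and 16.6 CPM (lowest, median and highest plate, here and below) in suspensor-like nuclei, against 11.6, 121 and 182 CPM in unmarked nuclei. The groups overlapped only through the lowest unmarked plate and the highest suspensor plate, and suspensor-like sums were lower on 8 of 8 plates. The fitted difference was −9.38 ± 2.21 (log2, SE; edgeR adjusted p = 0.00129). HTA13 was found in 2.19% of suspensor-like nuclei (95% exact binomial interval 0.454 to 6.27%) and 30.1% of unmarked nuclei (20.5 to 41.2%) after thinning.

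AT5G10400, the leading H3.1 gene per kb, had 0, 0.841 and 104 CPM in suspensor-like nuclei, against 11.2, 229 and 393 CPM in unmarked nuclei. Suspensor-like nuclei of 6 plates had under 2 CPM, those of the others exceeded the lowest unmarked plate, and all 8 plates had the lower value in suspensor-like nuclei. It fell by 7.10 on the log2 scale (SE 1.68; edgeR adjusted p = 0.00139). AT1G09200 (H3.1) had 0, 4.90 and 132 CPM in suspensor-like nuclei, against 64.6, 105 and 306 CPM in unmarked nuclei, with overlap at the top suspensor plate, a difference of −5.71 ± 1.84 (edgeR adjusted p = 0.0287) and a lower value on 7 of 8 plates.

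Both H4 genes called are among those that share words with other H4 genes. AT5G59690 had 0, 0.787 and 23.3 CPM in suspensor-like nuclei, against 3.20, 136 and 657 CPM in unmarked nuclei. Its groups overlapped at the low end, and 7 of 8 plates were lower in suspensor-like nuclei (−7.63 ± 1.95, edgeR adjusted p = 0.00361). AT1G07820, the leading H4 gene per kb, had 2.09, 31.9 and 129 CPM in suspensor-like nuclei, against 22.4, 304 and 529 CPM in unmarked nuclei. These groups overlapped too, and it was lower on 8 of 8 plates (−3.19 ± 1.07, edgeR adjusted p = 0.0386).

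Of the H2B genes, HTB2 had 0, 1.41 and 38.9 CPM in suspensor-like nuclei, against 0.821, 228 and 376 CPM in unmarked nuclei (−4.90 ± 1.495, edgeR adjusted p = 0.0192, lower on 8 of 8 plates). AT2G37470 had 0, 0.164 and 57.7 CPM in suspensor-like nuclei, against 0, 47.8 and 309 CPM in unmarked nuclei (−7.07 ± 2.36, edgeR adjusted p = 0.0365, lower on 7 of 8 plates). Both overlapped at low unmarked plates. HTB4, the leading H2B gene, was not called, at 159 ± 50.1 CPM in suspensor-like nuclei and 450 ± 232 CPM in unmarked nuclei (−1.47 ± 0.76, edgeR adjusted p = 0.223). HTB4 had the highest level per kb of its type over all nuclei and was found in more nuclei than any other member.

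The leading members of the other types did not pass the test between suspensor-like and unmarked nuclei. AT4G40040 (H3.3) had 273 ± 170 CPM in suspensor-like and 473 ± 346 CPM in unmarked nuclei (−0.70 ± 0.72, edgeR adjusted p = 0.612). HTA8 (H2A.Z) had 104 ± 80.6 and 262 ± 162 CPM in these classes (−1.62 ± 1.02, edgeR adjusted p = 0.341). HTA10 (H2A) differed by −2.18 ± 1.35 (edgeR adjusted p = 0.333), HTA6 (H2A.W) by −4.33 ± 1.70 (0.0879), GAMMA-H2AX by −7.37 ± 3.24 (0.14) and AT1G06760 (H1) by −1.19 ± 1.15 (0.578). HTA6 was nevertheless lower in suspensor-like nuclei on 8 of 8 plates, at 11.6 ± 16 CPM there and 126 ± 65 CPM in unmarked nuclei.

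How many of the 7 genes are called depends on the fit. All 7 were also called by DESeq2, which called 16 members. The same edgeR fit without the plate block called 2. Leaving out 1 plate gave 3 to 5 calls, with 3 without plate 3, 4 without plate 7 and 3 without plate 8. Against the unmarked nuclei of the inner-vascular-like and protoderm-like clusters alone, an alternative added after seeing the data, 1 was called. This fit holds 7 plates, since plate 5 had no such nuclei. Leaving out plate 5 alone, with the whole unmarked class, kept 5 of the 7 calls. The narrower class holds 46 unmarked nuclei, and the part of this smaller number was not tested. HTA13, AT5G10400 and AT5G59690 were called in 15 of 16 alternatives each and HTB2 in 12 of 16, but AT1G09200 in 7 of 16, AT1G07820 in 5 of 16 and AT2G37470 in 3 of 14. None of the 7 changed sign under any of these fits.

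**Figure D2:**
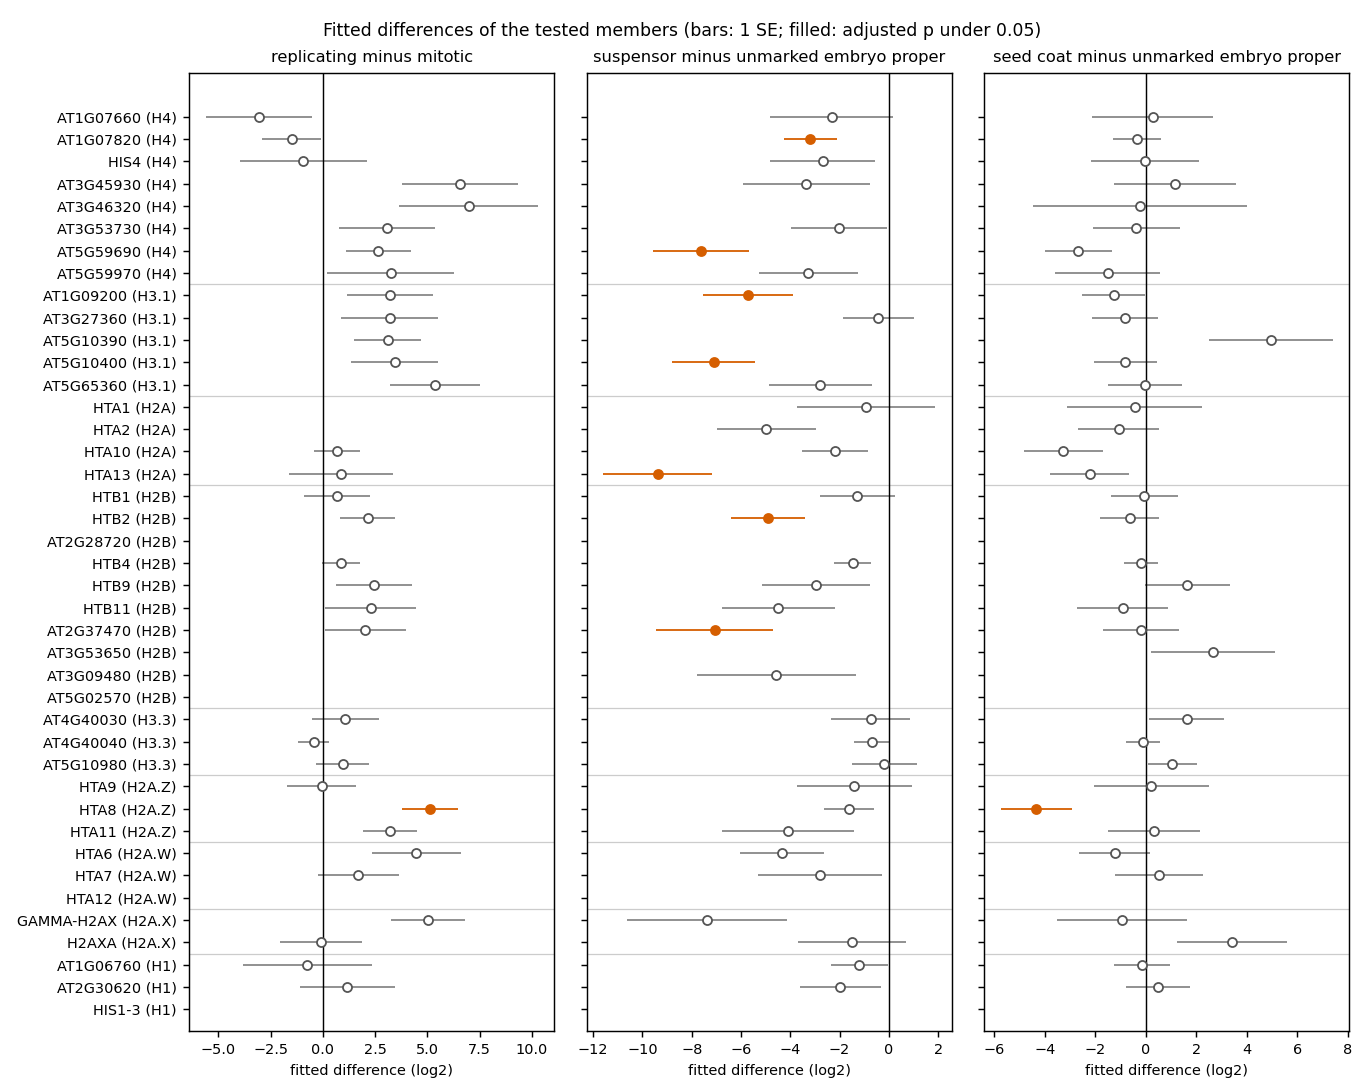
Fitted log2 differences (horizontal axis, bars 1 SE) of each tested member in 3 comparisons, with filled points for an edgeR adjusted p under 0.05 and no point for a member that was not tested. All points lie left of 0 in the panel of suspensor minus unmarked nuclei, where 7 are filled, and HTA8 is the filled point in the other panels.

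Of 27 genes for factors that load or exchange histones, 23 were tested. Of these, AT1G77310, annotated as Ubinuclein 2, a partner of the H3.3 chaperone HIRA, and ATRX, a remodeller that works with H3.3, rose in suspensor-like nuclei, and 0 fell. That is 2 of 23, against 8.51% of all genes tested, and so near the background. AT1G77310 averaged 170 ± 58.1 CPM in suspensor-like nuclei and 10.7 ± 29.4 CPM in unmarked nuclei (9.47 ± 1.96, edgeR adjusted p = 0.00016). ATRX averaged 516 ± 145 CPM in suspensor-like nuclei and 114 ± 72.5 CPM in unmarked nuclei (2.39 ± 0.79, edgeR adjusted p = 0.0335), and both were higher on 8 of 8 plates. HTR12, which encodes the centromeric H3 variant, fell, with 0.311 ± 0.802 CPM in suspensor-like nuclei and 78.6 ± 93.7 CPM in unmarked nuclei (−9.82 ± 2.63, edgeR adjusted p = 0.00614, lower on 8 of 8 plates).

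Between replicating and mitotic nuclei, H2A.Z was the only one of the 9 types whose groups did not overlap. The 3 H2A.Z genes summed to 445, 600 and 742 CPM (lowest, median and highest plate) in replicating nuclei, against 27.3, 154 and 250 CPM in mitotic nuclei. The groups did not overlap, and 8 of 8 plates were higher in replicating nuclei. HTA8, the leading H2A.Z gene, had 154, 339 and 511 CPM in replicating nuclei, against 0, 17.2 and 119 CPM in mitotic nuclei. It was also higher on 8 of 8 plates without overlap, and it was found in 53.1% of replicating nuclei (95% exact binomial interval 40.2 to 65.7%) and 22.8% of mitotic nuclei (12.7 to 35.8%) after thinning. HTA11, another H2A.Z gene, averaged 196 CPM in replicating nuclei and 40 CPM in mitotic nuclei, higher on 8 of 8 plates, and did not pass the test (3.21 ± 1.31, edgeR adjusted p = 0.368). HTA9 averaged 83.5 CPM in replicating nuclei and 63.4 CPM in mitotic nuclei.

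HTA8 was the only one of 33 members tested that was called between replicating and mitotic nuclei, at a difference of 5.11 ± 1.34 (log2, SE; edgeR adjusted p = 0.0108). Of the 7408 genes tested, 0.864% were higher and 1.77% lower in replicating nuclei. The call was lost without the plate block, under stricter limits on nuclei and with a stricter class definition, and its adjusted p lay between 9.17e-05 and 0.224 over 15 alternatives. Positive differences were found for 26 of 33 members, with a median of 2.15, against 0.03 over all genes. H3.1 summed to 861 ± 588 CPM in replicating nuclei and 210 ± 210 CPM in mitotic nuclei, H2B to 1104 ± 838 and 407 ± 219 CPM, and H2A.X to 265 ± 158 and 71 ± 60.1 CPM in the same order, and all these groups overlapped. H3.3 was at 635 ± 340 CPM in replicating nuclei and 663 ± 201 CPM in mitotic nuclei. H3.1 thus made up 53.7 ± 27.6% of H3.1 plus H3.3 in replicating nuclei and 21.7 ± 14.2% in mitotic nuclei, with the higher share in replicating nuclei on 6 of 8 plates.

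The leading members of the other types did not pass the test between replicating and mitotic nuclei. GAMMA-H2AX came nearest, at 213 ± 141 CPM in replicating nuclei and 16 ± 20.08 CPM in mitotic nuclei (5.01 ± 1.77, edgeR adjusted p = 0.167). HTA6 had 163 ± 149 CPM in replicating nuclei and 58 ± 83.6 CPM in mitotic nuclei (4.46 ± 2.13, edgeR adjusted p = 0.644). AT5G10400 (H3.1) had 159 ± 164 CPM in replicating nuclei and 45.2 ± 54.9 CPM in mitotic nuclei (3.43 ± 2.09, edgeR adjusted p = 0.995). For AT1G07820, AT4G40040, HTA10, HTB4 and AT1G06760 the differences were −1.50 ± 1.40, −0.43 ± 0.74, 0.68 ± 1.098, 0.88 ± 0.91 and −0.75 ± 3.09, each with an edgeR adjusted p of 1. Of the loading factors, FAS1, a CAF-1 subunit, rose to 562 ± 260 CPM in replicating nuclei, against 1.31 ± 3.05 CPM in mitotic nuclei (11.37 ± 1.24, edgeR adjusted p = 2.24e-12). TSK, a reader of newly placed H3.1, rose to 387 ± 245 CPM, against 19.8 ± 38.6 CPM in mitotic nuclei (9.41 ± 1.64, edgeR adjusted p = 1.04e-05).

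Replicating nuclei had 2976 ± 1932 CPM of replication-dependent RNA and unmarked embryo-proper nuclei 3067 ± 1510 CPM, a difference far smaller than the spread between plates. Single types did not all follow this total. H4 was at 549.1 ± 414.8 and 892.5 ± 455.7 CPM in the same order, lower on 7 of 8 plates. H3.1 was at 860.8 ± 587.8 and 638.4 ± 388.5 CPM, higher on 5 of 8. H2A.Z (601.9 and 339.5 CPM) and H2A.X (264.7 and 96.07 CPM) were higher on 6 of 8. H2A (462.4 and 452.7 CPM) and H2B (1104 and 1083 CPM) were near each other. All these groups overlapped. Of 35 members tested, edgeR called 0, at a background of 0.185% of all genes higher and 0.145% lower. At an unadjusted p under 0.05 there were 3, and DESeq2 called 2 and limma 0. The 3 were AT5G10390 (H3.1), at 198 CPM in replicating nuclei and 25 CPM in unmarked nuclei, HTA11, at 196 and 49.6 CPM, both higher on 8 of 8 plates, and AT1G06760 (H1), at 10.8 and 272 CPM, lower on 7 of 8 plates. They were singled out after their values were seen. The leading members gave differences of −2.27 ± 1.28 for AT1G07820, −0.38 ± 1.22 for AT5G10400, −0.13 ± 1.07 for HTA10, −0.78 ± 0.75 for HTB4, −0.44 ± 0.71 for AT4G40040, 0.50 ± 0.83 for HTA8, 0.02 ± 1.28 for HTA6 and 1.94 ± 1.28 for GAMMA-H2AX, each with an edgeR adjusted p of 1, and of −4.82 ± 1.74 for AT1G06760 (edgeR adjusted p = 0.58). FAS1 rose, at 562 ± 260 CPM in replicating nuclei and 130 ± 161 CPM in unmarked nuclei (2.91 ± 0.74, edgeR adjusted p = 0.0411). So did ATXR6, a methyltransferase that acts on H3.1, at 301 ± 265 and 84.8 ± 179 CPM (8.50 ± 1.78, edgeR adjusted p = 0.00381). For ATXR6, as for AT1G77310 and TSK above, the fitted difference is far larger than the mean levels alone would give.

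Within the embryo-proper nuclei under the mitotic limit, types differed in how their mean levels ran with the number of replication markers. The classes were cut on these markers, and the values are a description. The mean H2B level was 995, 984, 991, 1006 and 1662 CPM per nucleus with 0 to 2, 3 to 5, 6 to 8, 9 to 11 and 12 to 18 replication markers. The mean H2A.X level was 132, 144, 203, 269 and 679 CPM, and that of H2A.W 135, 136, 207, 237 and 544 CPM, over the same steps. Mean H3.1 was 481.1, 779.9, 856.3, 757.9 and 1050 CPM, and mean H4 653.4, 906.5, 649.7, 279.5 and 743.2 CPM. Means of H2A.X and H2A.W were thus higher at each step, barely so for H2A.W at the first, while those of H2B were near each other up to the last. Means of H3.1, H4, H2A, H3.3 and H2A.Z each fell at 1 step or more. Medians ran otherwise. The median nucleus had 0, 0, 0, 12.5 and 375 CPM of H2A.X and 0, 0, 0, 0 and 146 CPM of H2A.W. For H2B the medians were 332, 407.5, 200, 718.5 and 1477 CPM. The last step holds 12 nuclei from 6 plates and also has the most features (median 2789 after thinning, against 1770 to 2086 in the other steps). Without it, the highest mean was 269 CPM for H2A.X and 237 CPM for H2A.W, both at 9 to 11 markers. Mean H1 was 266 CPM at 0 to 2 markers and between 90.99 and 110 CPM in the other steps, but the median nucleus had 0 CPM of H1 in every step.

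Mitotic nuclei had 319, 913 and 2640 CPM of replication-dependent RNA (lowest, median and highest plate), against 1671, 2608 and 6162 CPM in unmarked nuclei, lower on 7 of 8 plates but with overlap. H3.1 and H4 were lower on 8 of 8 plates, at 210 ± 210 and 358 ± 257 CPM in mitotic nuclei and 638 ± 389 and 893 ± 456 CPM in unmarked nuclei. H3.3 did not follow them, at 663 ± 201 CPM in mitotic nuclei and 684 ± 377 CPM in unmarked nuclei. Of 31 members tested, edgeR called 0, with 5 at an unadjusted p under 0.05, all lower, and DESeq2 called 5 and limma 0. The background was 0.665% of all genes higher and 0.0554% lower. Negative differences were found for 28 of 31, with a median of −1.71, against 0.05 over all genes. The leading members gave −0.70 ± 1.03 for AT1G07820, −3.07 ± 1.61 for AT5G10400, −1.15 ± 1.24 for HTA10, −1.71 ± 0.85 for HTB4, −0.04 ± 0.69 for AT4G40040, −4.79 ± 2.35 for HTA6 and −2.89 ± 3.12 for GAMMA-H2AX, each with an edgeR adjusted p of 1, and −4.37 ± 1.61 for HTA8 (0.43) and −3.68 ± 1.52 for AT1G06760 (0.671). Leaving out plate 5 or plate 6 gave 1 call each.

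Maternal seed-coat-like nuclei had 946, 1645 and 6011 CPM of replication-dependent RNA (lowest, median and highest plate), against 1671, 2608 and 6162 CPM in unmarked embryo-proper nuclei, with wide overlap. Of the seed-coat-like nuclei, 23 of 81 reached the limit for replication markers, which unmarked nuclei by definition do not. The highest mean H3.3 total of the 6 classes was found in them, at 894 ± 409 CPM, against 684 ± 377 CPM in unmarked nuclei, which differ by less than the spread between plates. Of 36 members tested, 1 fell and 0 rose, at a background of 0.611% lower and 3.75% higher. This was HTA8, at 0, 6.95 and 238 CPM (lowest, median and highest plate) in seed-coat-like nuclei, against 0, 235 and 511 CPM in unmarked nuclei, with a difference of −4.34 ± 1.41 (edgeR adjusted p = 0.0483). It was lower on 6 of 8 plates, the groups overlapped, and it was found in 18.5% of seed-coat-like nuclei and 42.2% of unmarked nuclei after thinning. The call was made in 5 of 16 alternatives. It was lost without any of plates 2, 3, 4, 6, 7 and 8, without the plate block, with no filter, with equal numbers of nuclei, under stricter limits and with the stricter class definition, under which the 1 member called was another. The adjusted p lay between 0.00514 and 0.418 over 16 alternatives. The leading members of the other types had differences from −3.28 ± 1.56 (HTA10, edgeR adjusted p = 0.266) to −0.11 ± 0.69 (AT4G40040, 0.97), with AT1G07820 at −0.35 ± 0.95 (0.923), AT5G10400 at −0.81 ± 1.26 (0.84), HTB4 at −0.20 ± 0.68 (0.941), HTA6 at −1.24 ± 1.42 (0.757), GAMMA-H2AX at −0.94 ± 2.59 (0.923) and AT1G06760 at −0.15 ± 1.12 (0.976).

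QC/columella nuclei, few in number, had the widest spread. Their replication-dependent total was 927, 2082 and 12275 CPM (lowest, median and highest plate), against 1671, 2608 and 6162 CPM in unmarked nuclei, and the groups overlapped. Of the 40 QC/columella nuclei, 11 reached the limit for replication markers, and the 25 under both limits had 273, 1341 and 6282 CPM. H3.1 made up 57.7 ± 22.7% of H3.1 plus H3.3 in QC/columella nuclei and 47.5 ± 12% in unmarked nuclei. H2A.Z was at 143 ± 129 CPM in QC/columella nuclei and 340 ± 192 CPM in unmarked nuclei. This pair of classes was compared by level only, with no test.

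Replication-dependent genes were detected together in a minority of nuclei. The median nucleus, thinned to 100000 counts, held counts of 3 of the 27 genes, and the fullest held 24. At least 12 were found in 65 of 534 nuclei (12.2%, 95% exact binomial interval 9.52 to 15.3%), from all 8 plates. The share was 21.9% in replicating, 8.77% in mitotic, 0.73% in suspensor-like (1 of 137 nuclei), 20% in QC/columella, 25.9% in seed-coat-like and 13.3% in unmarked nuclei. Replication-dependent CPM of single nuclei were also summed over a class, so that each nucleus weighs the same at any depth. The nuclei with at least 12 of the genes held 55.4% of this sum in replicating, 65% in QC/columella and 61.5% in seed-coat-like nuclei. They held 44.6% in unmarked, 29% in mitotic and 1.86% in suspensor-like nuclei. They were picked by detection of these same genes, so a large share is partly built in.

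**Figure D3:**
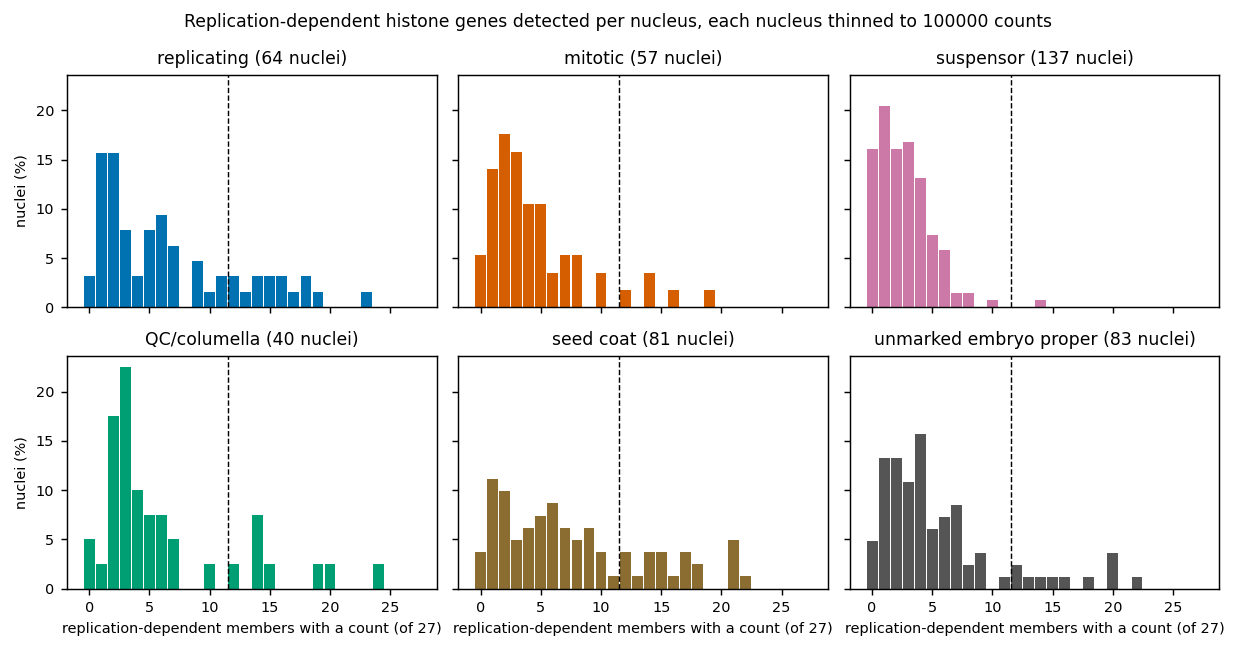
Share of nuclei (%, vertical axis) by the number of the 27 replication-dependent genes with a count in a nucleus thinned to 100000 counts (horizontal axis), in 6 classes, with a dashed line below 12. Suspensor-like nuclei end at 14 genes with 1 nucleus past the line, while the other classes reach 19 to 24.

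The 65 nuclei with at least 12 of these genes also held more features, with a median of 3351 after thinning, against 2074 in the other 469 nuclei. The number of genes detected and the number of features correlated at r = 0.51 over 534 nuclei, which share 8 plates, so the part of complexity in this pattern was not tested. TSO2, a subunit of ribonucleotide reductase that supplies nucleotides for replication, was found in 43.1% of the 65 nuclei and 8.96% of the others. Of the 18 replication markers, its detection correlated most with the number of genes detected (r = 0.34). POLA2 had the lowest correlation (r = 0.077), at 12.3 and 7.25%. The limit for replication markers was reached by 32 of the 65 nuclei and 88 of the other 469. HTR11, an H3.1-like gene outside the 41 members, was found in 32.3 and 4.9%, FAS1 in 56.9 and 24.7% and ASF1B, an H3-H4 chaperone, in 20 and 2.99%. Of the mitotic markers, CDC20.1 was found in 16.9 and 18.1% and the B-type cyclin gene CYCB1;1 in 18.5 and 8.74%. HTA6, the leading H2A.W gene and no part of the 27, was found in 66.2% of the 65 nuclei and 10.7% of the others. The leading genes of the other types outside the 27 also had larger shares in the 65 nuclei. These were AT4G40040 (H3.3) at 84.6 and 47.3%, HTA8 (H2A.Z) at 50.8 and 27.1%, GAMMA-H2AX at 52.3 and 13.9% and AT1G06760 (H1) at 63.1 and 18.6%. Levels of the types correlated weakly from nucleus to nucleus, at r = 0.1 (H2A.Z and H1) to 0.4 (H4 with H3.1 or H2A, and H2A with H2A.W) over 534 nuclei of unequal depth.

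HTB1, an H2B gene, was found more often in nuclei with a count of the H2B-GFP reporter. Counts of sGFP were found in 74 of 534 nuclei. HTB1 was found in 63.5% of these 74 nuclei (95% exact binomial interval 51.5 to 74.4%) and 30.7% of the other 460 (26.5 to 35.1%), with the higher share on 8 of 8 plates. Its mean level was 220 CPM in nuclei with sGFP and 76.1 CPM in nuclei without it. The levels of HTB1 and sGFP correlated at r = 0.25 over 534 nuclei, and for HTB2 and HTB4 r was 0.01 and 0.05. Between classes the shares did not run together. HTB1 was found in 42.2% of replicating, 31.6% of mitotic, 27.7% of unmarked, 29.2% of suspensor-like, 35% of QC/columella and 50.6% of seed-coat-like nuclei. In the same order sGFP was found in 21.9, 15.8, 21.7, 8.03, 12.5 and 9.88%. Nuclei with sGFP had a median of 2960 features, against 2432 in the others. The reporter carries an H2B coding sequence, and whether reads of it were counted as HTB1 was not tested, so the level of HTB1 is uncertain in every class.

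**Figure D4:**
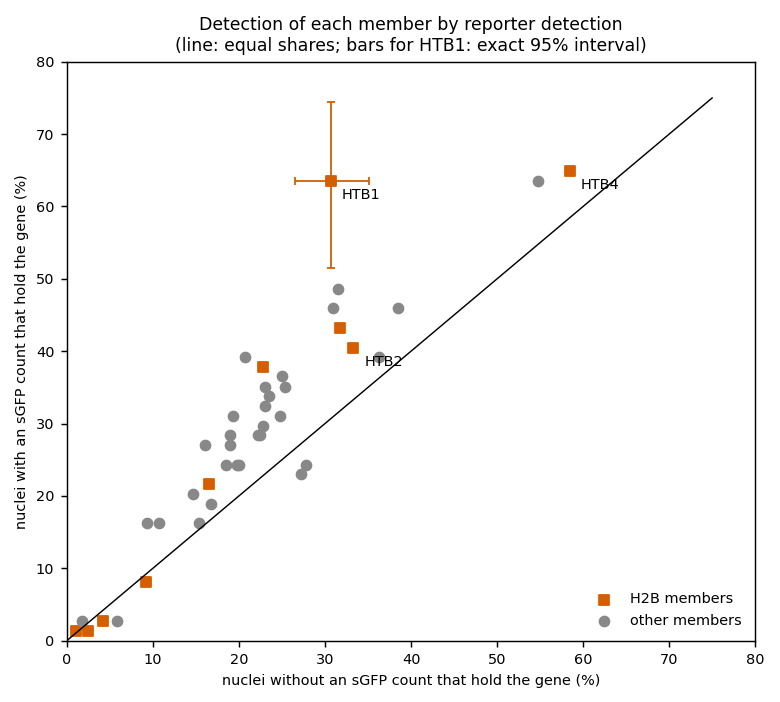
Share of nuclei with a count of each member among the 74 nuclei with an sGFP count (%, vertical axis) against the 460 nuclei without one (%, horizontal axis), with H2B members as squares and exact 95% intervals for HTB1. HTB1 lies at 63.5 against 30.7%, farther above the line of equal shares than any other member.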

How the data were processed

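The authors trimmed 50-base single-end reads with cutadapt 2.6, pseudoaligned them with Kallisto (version not given in the sources used here) to Ensembl Plants transcripts of TAIR10, spike-ins and sGFP, and deposited 1 table of estimated counts per plate and gene, in whole numbers and not normalized. How transcripts were summed and rounded is not given in the sources used here, and splitting of reads between near-identical genes moves counts between members. Wells with at least 100000 counts and 1000 features were kept (median 453003 counts; 21257765 to 50998340 per plate). Intervals cover counting error only. No doublet caller was run.

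Nuclei were clustered with scanpy 1.11.5 (1000 variable genes, 15 components, 15 neighbours, Leiden resolution 1) without the members, chaperones and other histone genes. Class sums per plate were tested with edgeR 4.0.16 (filterByExpr, TMM, glmQLFTest; two-sided; plate as a block) and adjusted by Benjamini-Hochberg at 0.05; each SE is the difference over the square root of F. Sums of the same plate share a sort and a library plate, yet their deviations correlated by only −0.027 to 0.091 over the plates of all comparisons. Members and lists were chosen with earlier results of these data known. Named in each comparison are members called, the leading member of each type per kb and chaperones called. DESeq2 1.42.0 and limma 3.58.1 on mean log2(CPM + 1) served as alternatives, as did other filters, limits and classes, no block, and each plate left out. The edgeR test was also run on simulated counts. These held no plate effect and no RNA concentrated in few nuclei, so that run does not check the calls made here.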

Additional observations from a re-analysis of the deposited data

Results flagged for a closer look

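Of 60 sets of 8 plates (9 type totals and the share of H3.1, in 6 classes), 10 held a plate that stood apart from the rest. The limit used is passed by chance in about 1 set in 20 where values are independent and normally distributed. Sets of a class share the same nuclei, so that rate does not hold here. All 10 were the highest plate of their set. In QC/columella nuclei plate 5 stood apart for H3.1 (4371 CPM, next plate 1871), H2A (2138 CPM), H2A.W (1094 CPM) and H2A.X (480.6 CPM). In seed-coat-like nuclei plate 6 stood apart for H3.1 (2224 CPM, next plate 867.9), H2A (1117 CPM) and H2B (2039 CPM). The others were H3.1 in mitotic nuclei on plate 3 (689.6 CPM), H2B in unmarked nuclei on plate 2 (2343 CPM) and the share of H3.1 in H3.1 plus H3.3 in suspensor-like nuclei on plate 1 (75.55%, next plate 38.88%).

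Histone RNA was also present in the nuclei that no marker list named, which enter no comparison. The replication-dependent genes averaged 972.6 CPM in the 43 nuclei of 1 unnamed cluster, which has few features (median 1306), and 2583 CPM in the 28 nuclei of the other, which is led by stress genes such as DREB2A.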

How the results depend on the processing

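Of the differences named over the 5 comparisons, none of the 9 that were called (HTA8 in more than 1 comparison) changed sign under any alternative. Among those named without a call, which repeat the leading gene of each type, 20 changed sign under at least 1. Members called, in the order replicating against unmarked, mitotic against unmarked, replicating against mitotic, suspensor-like against unmarked and seed-coat-like against unmarked, numbered 0, 0, 1, 7 and 1. DESeq2 called 2, 5, 6, 16 and 6. Limma called 2, 13 and 3 in the last 3 comparisons. Without the replicate block (plate) the counts of these 3 were 0, 2 and 0. Equal numbers of nuclei gave 2 for replicating against mitotic and 0 for the seed coat, stricter limits on nuclei 0 and 0, and no filter 0 for the seed coat. The stricter class definition gave 1 for replicating against unmarked, 0 for replicating against mitotic and 4 for the suspensor. Against unmarked nuclei of the inner-vascular-like and protoderm-like clusters alone, added after seeing the data and fitted without plate 5, which had no such nuclei, mitotic and suspensor-like nuclei each gave 1. Leaving out a plate gave 0 to 1 for mitotic against unmarked, 1 to 3 for replicating against mitotic (3 without plate 5), 3 to 5 for the suspensor and 0 to 1 for the seed coat.

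Over all genes the same comparisons called 25, 52, 195, 1028 and 421. DESeq2 called 1120, 1065, 1477, 5484 and 4218, and limma 70, 247, 299, 2878 and 2160. Without the block the counts were 2 and 34 in the first comparisons and 482 and 130 in the last (136 for replicating against mitotic). Stricter limits gave 14 for replicating against unmarked, the narrower unmarked class 50, and stricter classes 126 for replicating against mitotic, 1671 for the suspensor and 811 for the seed coat. Leaving out a plate gave 14 to 30 for replicating against unmarked and 238 to 364 for the seed coat. In the suspensor comparison the median log2 difference over all genes was 1.39, against 0.56 by DESeq2, 0.24 without the block and 3.07 with stricter classes.

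The median over nuclei in place of plate sums lowered type totals. H4 came to 23.97 CPM in suspensor-like and 262.8 in unmarked nuclei, H3.1 to 2.592 and 199.5, and H2A to 1.901 and 115.1 in the same order, with H2A at 16.03 in mitotic nuclei. H2B came to 147.5 in suspensor-like nuclei. H3.3 came to 260.5 in replicating, 384.5 in mitotic and 152.7 in suspensor-like nuclei, and H2A.Z to 268.8, 30.07 and 0.3191. The cause of these moves was not tested. With 8 plates and up to 65% of a class's replication-dependent CPM, summed with equal weight per nucleus, in few nuclei, a member that was not called may still differ.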

Other observations

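Among histone genes outside the 41 members, HTR12, of centromeric H3, averaged 138 CPM in replicating, 37.2 CPM in mitotic, 0.311 CPM in suspensor-like, 62.3 CPM in QC/columella, 26.2 CPM in seed-coat-like and 78.6 CPM in unmarked nuclei. HTR11, an H3.1-like gene, averaged 54.3 CPM in replicating, 0.0206 CPM in mitotic, 1.61 CPM in suspensor-like, 63.8 CPM in QC/columella, 22.6 CPM in seed-coat-like and 67.4 CPM in unmarked nuclei.

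Of the chaperones, FAS2, a CAF-1 subunit like FAS1, averaged 128 CPM in replicating, 8.51 CPM in mitotic, 17.6 CPM in suspensor-like and 77.7 CPM in unmarked nuclei, and passed no test. HIRA, which loads H3.3, averaged 28.6 CPM in suspensor-like and 18.7 CPM in unmarked nuclei.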
